A study of Mus musculus with 6 samples.

Results

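The 10 genes described here carry iron into cells, store it, release it, free it from heme or sense it: Tfrc, Trf, Slc11a2, Fth1, Ftl1, Slc40a1, Cp, Hmox1, Aco1 and Ireb2. They were chosen by name for their roles in iron handling, with earlier results of these data known. They are 10 of the 57180 genes listed in the deposited tables. All 10 passed the filter on low counts and were among the 18092 genes tested. Total kidney RNA had been sequenced from 6 wild-type male C57BL/6J mice, which were 7 weeks old when obtained. The nanoplastic group was 3 mice that received cationic polystyrene nanoparticles orally for 6 weeks, once daily at 200 mg/kg, and the vehicle group was 3 mice given deionized water (0 mg/kg). The tables held 19408534 to 23793640 expected counts per nanoplastic library and 23420454 to 26292760 per vehicle library. Whole kidney was the material, so a lower level in these libraries can be fewer cells of a type or less RNA per cell, which cannot be told apart.

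Iron circulates bound to transferrin (Trf), which enters cells through the transferrin receptor (Tfrc), and the metal transporter DMT1 (Slc11a2) then carries iron out of the endosome. Iron not in use is stored inside ferritin, a shell built of heavy (Fth1) and light (Ftl1) chains, and leaves the cell through ferroportin (Slc40a1), the known iron exporter, with ceruloplasmin (Cp) oxidising it outside. Heme oxygenase 1 (Hmox1) frees iron from heme. The kidney tubule takes back iron that is filtered at the glomerulus, and the iron regulatory proteins encoded by Aco1 and Ireb2 bind hairpins called iron-responsive elements when iron is scarce. In the 5′ UTR such a hairpin lowers translation, and in the 3′ UTR it steadies the transcript, both as background.

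These hairpins are printed because they are what the ferritin chains, ferroportin and the transferrin receptor have in common at the sequence level. A search of GENCODE vM21 transcripts on their own strand, found them in 4 of the 10 genes. The pattern is a C, any 5 bases, the loop CAGTGN and 5 further bases, with the 5 bases on either side of the loop able to pair (G with T allowed). In 21901 coding genes the pattern occurred in the 5′ UTR of 31 genes (0.142%), in the coding part of 140 (0.639%) and in the 3′ UTR of 129 (0.589%). Each run is read 5′ to 3′ along the transcript, with the 6-base loop in capitals, and the positions are on GRCm38, the build of that annotation, whereas the deposited tables are on GRCm39.
Tfrc, 3′ UTR, chr16:32631219-32631248, plus strand: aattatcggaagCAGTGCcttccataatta
Tfrc, 3′ UTR, chr16:32631598-32631627, plus strand: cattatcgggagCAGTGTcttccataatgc
Tfrc, 3′ UTR, chr16:32631663-32631692, plus strand: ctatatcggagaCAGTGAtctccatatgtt
Tfrc, 3′ UTR, chr16:32631710-32631739, plus strand: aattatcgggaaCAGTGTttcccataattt
Fth1, 5′ UTR, chr19:9982732-9982761, plus strand: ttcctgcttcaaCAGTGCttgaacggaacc
Ftl1, 5′ UTR, chr7:45459778-45459807, minus strand: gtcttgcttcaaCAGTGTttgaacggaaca
Slc40a1, 5′ UTR, chr1:45925464-45925493, minus strand: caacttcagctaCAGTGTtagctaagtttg
Tfrc held 4 matches in the 3′ UTR, and Fth1, Ftl1 and Slc40a1 held 1 each in the 5′ UTR. Of the 3 protein-coding transcripts annotated for Tfrc, which are 4890, 1860 and 166 bases long, the matches lie in the 4890-base transcript and in no other. The letters searched for were not found in the annotated transcripts of Slc11a2, Trf, Cp, Hmox1, Aco1 or Ireb2, which says only that this exact pattern is not in them.

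**Figure D1:**
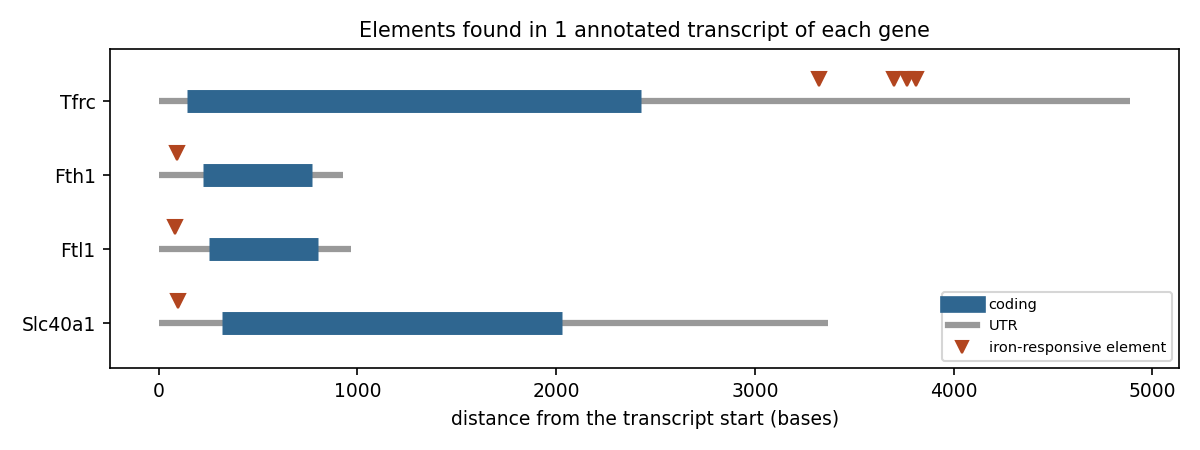
Iron-responsive elements (triangles) in 1 annotated transcript of each gene, with the coding part as a thick bar and the UTRs as a thin line; the x axis is the distance from the transcript start in bases. The 4 matches in Tfrc sit from base 3321 to base 3812, behind the coding part, and those of Fth1, Ftl1 and Slc40a1 start at bases 93, 84 and 96, before it.

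The comparison asked whether transcripts of iron handling differed in kidneys after nanoplastic. Levels of the transferrin receptor, both ferritin chains, ferroportin and heme oxygenase 1 were lower in every nanoplastic library than in every vehicle library. Transferrin, DMT1, ceruloplasmin and both iron sensors overlapped between the groups. By edgeR's quasi-likelihood test with Benjamini-Hochberg adjustment over all genes, 0 of the 10 passed the threshold of 0.05, as did 0 of 18092 genes (0%), so none of the changes is called by that test. DESeq2, run on the same counts as an alternative, called Tfrc and Slc40a1 among 55 genes of the 12496 to which it gave an adjusted p (0.44%), 19 of them higher and 36 lower. With limma-voom 0 genes passed.

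At an unadjusted p under 0.05 in edgeR, 4 of the 10 iron genes were lower (Tfrc, Slc40a1, Hmox1 and Ftl1) and 0 higher, beside 654 lower (3.61%) and 688 higher (3.8%) of all genes tested, 1342 in all (7.42%). The groups did not overlap for 5 of the 10, all lower, beside 1143 lower (6.32%) and 1184 higher (6.54%) of all genes, 2327 in all (12.9%). The fold change was negative for 7 of the 10 and for 8689 of all genes (48%). The median log2 fold change of nanoplastic over vehicle was -0.12 over the 10 genes and 0.01 over all genes tested. Because the 10 genes were chosen with earlier results of these data known, these shares are a description and not a test of the set.

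**Figure D2:**
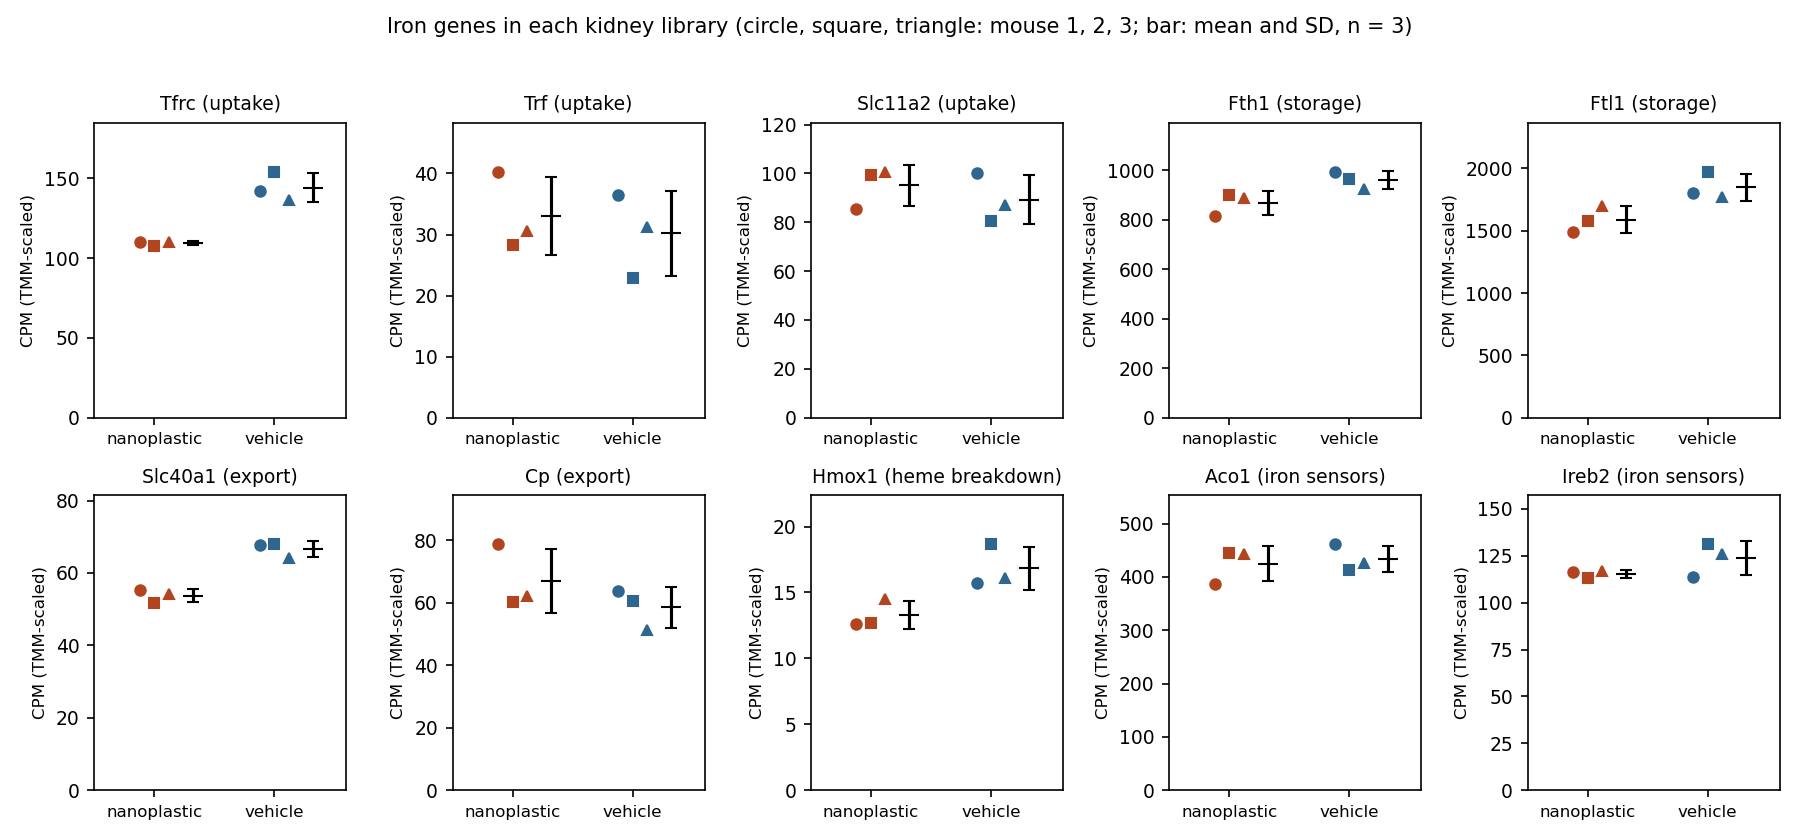
Level of each of the 10 iron genes in CPM (y axis from 0), counts scaled to a common library total with edgeR's TMM factors, with nanoplastic libraries at the left of each panel and vehicle libraries at the right; bars give the mean and SD of 3 libraries. The 3 nanoplastic libraries lie below the 3 vehicle libraries for Tfrc, Fth1, Ftl1, Slc40a1 and Hmox1 and overlap with them for the other 5.

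Tfrc, the receptor that brings transferrin-bound iron into cells, had 110.4, 107.9 and 109.9 CPM in nanoplastic mice 1, 2 and 3, against 142.2, 154.1 and 136.4 CPM in vehicle mice 1, 2 and 3. The nanoplastic libraries lay close together and below every vehicle library. The mean was 109.4 ± 1.3 CPM in nanoplastic and 144.3 ± 9.1 CPM in vehicle kidneys (SD, n = 3 each). Its log2 fold change was -0.40 ± 0.064 (SE; 95% interval -0.54 to -0.26), a change of -24.1% (interval -31.3% to -16.3%). The edgeR p was 7.94e-05, the fifth lowest of all genes tested, and the adjusted p was 0.208. DESeq2 gave a log2 fold change of -0.41 with an adjusted p of 0.000171. On the deposited TPM the difference was smaller, -0.27 on the log2(TPM + 0.1) scale with an adjusted p of 0.856 by limma, where the median of all genes was 0.07.

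Trf, the transferrin that carries iron in blood, had 40.3, 28.3 and 30.5 CPM in nanoplastic mice, against 36.5, 22.8 and 31.2 CPM in vehicle mice. Replicates of each group differed more than the groups did. The log2 fold change was 0.13 ± 0.17 (SE; interval -0.24 to 0.50), with an edgeR adjusted p of 0.873, and it turned negative without nanoplastic mouse 1 (-0.037) or vehicle mouse 2 (-0.033). Slc11a2, the DMT1 transporter, had 85.3, 99.3 and 100.7 CPM in nanoplastic mice, against 100.2, 80.5 and 86.9 CPM in vehicle mice. Its groups overlapped as well, with a log2 fold change of 0.09 ± 0.093 (SE; interval -0.11 to 0.30) and an edgeR adjusted p of 0.840. Leaving out 1 library gave Slc11a2 values from 0.023, without vehicle mouse 2, to 0.18, without vehicle mouse 1 (0.17 without nanoplastic mouse 1, 0.058 without nanoplastic mouse 2 and 0.048 without nanoplastic mouse 3), and TPM gave 0.23 on the log2(TPM + 0.1) scale.

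Of the storage genes, Ftl1 encodes the light chain, which helps iron to settle in the shell. It had 1486, 1579 and 1700.0 CPM in nanoplastic mice 1, 2 and 3, against 1806, 1973 and 1767 CPM in vehicle mice. Every nanoplastic value was below the lowest vehicle value. The log2 fold change was -0.22 ± 0.085 (SE; interval -0.41 to -0.03), a change of -14.1%, with an edgeR p of 0.0263 and an adjusted p of 0.611. Fth1, the heavy chain, which oxidises iron as it enters, had 812.7, 899.8 and 888.8 CPM in nanoplastic mice, against 993.1, 962.0 and 921.8 CPM in vehicle mice. The groups did not overlap, although nanoplastic mouse 2 and vehicle mouse 3 were close. Its log2 fold change was -0.15 ± 0.073 (SE; interval -0.31 to 0.02), with an edgeR p of 0.0718 and an adjusted p of 0.696, and -0.09 on the log2(TPM + 0.1) scale.

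Together the ferritin chains took 0.240%, 0.250% and 0.257% of the counts in nanoplastic mice 1, 2 and 3, against 0.274%, 0.285% and 0.271% in vehicle mice. Within ferritin, the heavy chain made up 35.4%, 36.3% and 34.3% of the counts in nanoplastic mice, against 35.5%, 32.8% and 34.3% in vehicle mice. That share overlapped between the groups, with means of 35.3% ± 1.0 in nanoplastic and 34.2% ± 1.4 in vehicle kidneys (SD, n = 3 each; two-sided exact permutation test, p = 0.4). For each 1000 ferritin counts there were 48.0, 43.5 and 42.5 Tfrc counts in nanoplastic mice, against 50.8, 52.5 and 50.7 in vehicle mice. This ratio within a library, which needs no scaling between libraries, was lower in all 3 nanoplastic libraries by counts. The log2 difference was -0.20, and the two-sided exact permutation p was 0.1, the smallest that 3 against 3 allows. From the deposited TPM, which is scaled by length, the log2 difference was -0.14 and the groups overlapped (two-sided exact permutation p = 0.2). The separation by counts was thus not seen by TPM.

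Near-identical copies can share reads with the ferritin genes. Of the Ftl1 coding sequence 7 annotated copies are at least 90% identical over at least 50% of its length, and 5 of them had counts, 4554 over all libraries or 1.89% of the counts of Ftl1 itself. Most of these were on Ftl1-ps1, 99.6% identical to Ftl1, with 21.7, 25.8 and 36.5 CPM in nanoplastic mice 1, 2 and 3, against 33.5, 38.7 and 34.96 CPM in vehicle mice. Nanoplastic mouse 3 fell among the vehicle libraries, so the groups overlapped, and reads of Ftl1-ps1 cannot be separated with certainty from those of Ftl1. Fth1 had 1 copy, with 8.3 counts (0.01% of its own). Trf has 1 copy in the annotation, Gm20425, which is not in the tables, and the other 7 genes had 0.

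Among the export genes, Slc40a1, ferroportin, had 55.3, 51.7 and 54.1 CPM in nanoplastic mice 1, 2 and 3, against 67.8, 67.9 and 64.2 CPM in vehicle mice. The groups were well apart, with means of 53.7 ± 1.8 CPM in nanoplastic and 66.6 ± 2.1 CPM in vehicle kidneys (SD, n = 3 each). The log2 fold change was -0.31 ± 0.063 (SE; interval -0.45 to -0.17), a change of -19.4% (interval -26.8% to -11.2%). The edgeR p was 0.000496, rank 27 of all genes tested, with an adjusted p of 0.311, and DESeq2 gave -0.32 with an adjusted p of 0.0373. On the deposited TPM the Slc40a1 difference was smaller, -0.23 on the log2(TPM + 0.1) scale with an adjusted p of 0.914 by limma.

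Ceruloplasmin, the copper ferroxidase encoded by Cp, had a positive fold change that did not pass a test. Cp had 78.7, 60.2 and 62.1 CPM in nanoplastic mice, against 63.7, 60.5 and 51.2 CPM in vehicle mice. Nanoplastic mouse 1 was the highest library and vehicle mouse 3 the lowest, and the remaining 4 lay between 60.2 and 63.7 CPM. Its log2 fold change was 0.20 ± 0.11 (SE; interval -0.05 to 0.44; edgeR adjusted p = 0.725). It was 0.066 without nanoplastic mouse 1 and 0.11 without vehicle mouse 3, and without both it was -0.02, with an edgeR adjusted p of 0.957.

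Hmox1, which opens the heme ring and frees its iron, had 12.6, 12.7 and 14.5 CPM in nanoplastic mice 1, 2 and 3, against 15.7, 18.7 and 16.1 CPM in vehicle mice. All nanoplastic libraries were below all vehicle libraries. The log2 fold change was -0.35 ± 0.10 (SE; interval -0.57 to -0.12), a change of -21.3%, with an edgeR p of 0.00695 and an adjusted p of 0.520. DESeq2 gave an adjusted p of 0.489.

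Both iron sensors overlapped between the groups. Aco1, which encodes iron regulatory protein 1 and is an aconitase while it holds an iron-sulfur cluster, had 386.9, 445.4 and 443.0 CPM in nanoplastic mice, against 461.3, 413.2 and 426.5 CPM in vehicle mice. Nanoplastic mouse 1 was the lowest library and vehicle mouse 1 the highest. The log2 fold change was -0.03 ± 0.077 (SE; interval -0.20 to 0.14; edgeR adjusted p = 0.955), and it turned positive with scaling by library size alone, on TPM, and without nanoplastic mouse 1 or vehicle mouse 1. Ireb2, which encodes iron regulatory protein 2, had 116.3, 113.1 and 116.9 CPM in nanoplastic mice, against 113.7, 131.2 and 126.2 CPM in vehicle mice. Vehicle mouse 1 fell among the nanoplastic libraries. Its log2 fold change was -0.10 ± 0.068 (SE; interval -0.25 to 0.05; edgeR adjusted p = 0.759). It was -0.16 without vehicle mouse 1, -0.055 without vehicle mouse 2, -0.057 with scaling by library size alone and -0.023 on the log2(TPM + 0.1) scale. For all genes, the median was 0.05 with library size alone and 0.07 on the log2(TPM + 0.1) scale, beside 0.01 with TMM scaling.

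**Figure D3:**
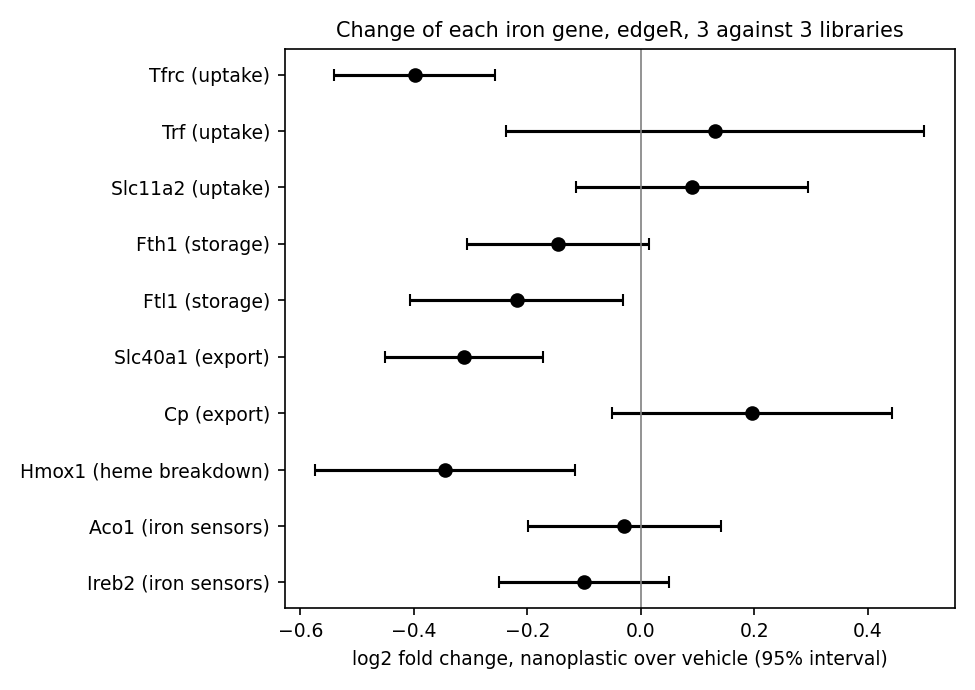
Log2 fold change of nanoplastic over vehicle for each of the 10 iron genes (x axis), with 95% intervals from edgeR on 3 against 3 libraries. The intervals of Tfrc, Ftl1, Slc40a1 and Hmox1 lie below 0, and those of the other 6 include 0.

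Compared per length, as CPM per kilobase of effective length, the ferritin chains were far above the rest. Ftl1 averaged 2074 ± 143 in nanoplastic and 2427 ± 160 in vehicle kidneys (SD, n = 3 each), rank 26 of the 18092 genes. Fth1 averaged 1198 ± 65 in nanoplastic and 1334 ± 43 in vehicle kidneys, rank 45. Aco1 came next, with 121.4 ± 8.7 in nanoplastic and 123.1 ± 5.7 in vehicle kidneys, rank 707. Slc11a2 had 38.8 ± 0.9 in nanoplastic and 34.7 ± 3.3 in vehicle kidneys, and Tfrc had 28.9 ± 0.5 in nanoplastic and 36.7 ± 1.9 in vehicle kidneys, so Slc11a2 was the higher in nanoplastic kidneys, while in vehicle kidneys the spreads of these neighbours met and their order is not firm. Cp, Ireb2, Slc40a1 and Trf had means of 17.2 to 23.7 in nanoplastic and 17.0 to 22.5 in vehicle kidneys. In nanoplastic kidneys Ireb2 (21.1 ± 0.3) lay above its neighbour Slc40a1 (17.5 ± 0.4). In vehicle kidneys Cp (21.1 ± 0.8) lay above its neighbour Trf (17.0 ± 2.9). The spreads of the other neighbours among these genes met, so the rest of their order is not firm. Hmox1 was the lowest of the 10, with 9.8 ± 0.8 in nanoplastic and 12.5 ± 1.2 in vehicle kidneys, rank 6160.

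Other genes of iron handling, in lists also chosen with earlier results of these data known, were read from the same edgeR fit. Of 71 such genes in 8 lists, 63 were measured, 26 with a positive and 37 with a negative fold change, with a median log2 fold change of -0.04 beside 0.01 for all genes. None passed the adjusted threshold in edgeR, and DESeq2 called 0 of the 54 to which it gave an adjusted p. At an unadjusted edgeR p under 0.05 there were 4 lower (Steap3, Snx3, Slc46a1 and Alas2) and 1 higher (Slc22a17) of the 63, beside 3.61% lower and 3.8% higher of all genes tested. The groups did not overlap for 6 lower and 1 higher of the 63, beside 6.32% and 6.54% of all genes.

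The transferrin cycle list had 9 of 10 genes measured, 8 with a negative and 1 with a positive fold change. Steap3, the reductase that acts on endosomal iron before DMT1 exports it, had 4.1, 2.9 and 3.7 CPM in nanoplastic mice, against 4.6, 4.8 and 4.8 CPM in vehicle mice (log2 fold change -0.42 ± 0.17, SE; edgeR adjusted p = 0.626). Its groups did not overlap. Snx3, which returns the receptor to the surface, had a log2 fold change of -0.16 ± 0.072 (SE; edgeR adjusted p = 0.670), and Exoc6, of the exocyst that delivers transferrin vesicles, had -0.07 ± 0.064 (SE; edgeR adjusted p = 0.814), both with overlapping groups.

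Tubular uptake, all 10 genes measured, had 6 positive and 4 negative. Slc22a17, a receptor for lipocalin 2, averaged 17.3 ± 0.1 CPM in nanoplastic and 15.2 ± 0.3 CPM in vehicle kidneys (SD, n = 3 each), higher in each nanoplastic library (log2 fold change 0.19 ± 0.080, SE; edgeR adjusted p = 0.666). The zinc and iron transporter Slc39a14 had a log2 fold change of -0.26 ± 0.13 and the endocytic adaptor Dab2 -0.11 ± 0.072 (SE), both with overlapping groups (edgeR adjusted p = 0.696 and 0.759).

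In the hepcidin list 7 of 11 genes were measured, 5 positive and 2 negative. Hepcidin itself was barely counted: Hamp had 1 count over the 3 nanoplastic libraries and 2 over the 3 vehicle libraries, and Hamp2 had 0 over the nanoplastic and 5 over the vehicle libraries, where a count of 0 allows up to 3 counts. Hjv, with 3 counts in nanoplastic and 2 in vehicle kidneys, and Tmprss6, with 30 in nanoplastic and 17 in vehicle kidneys, were also below the filter. Id1, a target of bone morphogenetic protein signals, had 15.2, 9.4 and 10.5 CPM in nanoplastic mice, against 9.0, 9.6 and 9.0 CPM in vehicle mice, its highest value in nanoplastic mouse 1 (log2 fold change 0.36 ± 0.17, SE; edgeR adjusted p = 0.674). Bmp6, a ligand that drives hepcidin, had 0.10 ± 0.078, and Erfe, a hepcidin suppressor made by red cell precursors, had -0.37 ± 0.28 (SE), with edgeR adjusted p values of 0.788 and 0.789.

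Ferritin and sensor turnover had 6 of 7 genes measured, 3 in either direction. Ncoa4, the receptor that delivers ferritin for breakdown, averaged 198.7 ± 7.7 CPM in nanoplastic and 212.0 ± 7.6 CPM in vehicle kidneys (SD, n = 3 each), with overlapping groups (log2 fold change -0.09 ± 0.062, SE; edgeR adjusted p = 0.757). Pcbp2, an iron chaperone, had 0.05 ± 0.065 and Herc2, a ubiquitin ligase, had -0.04 ± 0.060 (SE), with edgeR adjusted p values of 0.863 and 0.893. Ftmt, mitochondrial ferritin, and Hephl1, a ferroxidase, had 0 counts in all 6 libraries. Heph, the other ferroxidase listed, had -0.09 ± 0.091 (SE; edgeR adjusted p = 0.847).

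Mitochondrial iron and iron-sulfur cluster genes, all 16 measured, were negative for 10 and positive for 6, with a median log2 fold change of -0.005. Glrx5, which passes on clusters, averaged 28.04 ± 1.4 CPM in nanoplastic and 31.3 ± 0.7 CPM in vehicle kidneys (SD, n = 3 each), without overlap (log2 fold change -0.16 ± 0.072, SE; edgeR adjusted p = 0.674). Fdxr, which passes electrons on for cluster assembly, overlapped between the groups (log2 fold change 0.16 ± 0.11, SE; edgeR adjusted p = 0.758).

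Heme handling had 11 of 12 genes measured, 6 negative and 5 positive. Slc46a1, a folate and heme transporter, averaged 28.4 ± 0.8 CPM in nanoplastic and 31.9 ± 1.8 CPM in vehicle kidneys (SD, n = 3 each), without overlap (log2 fold change -0.17 ± 0.074, SE; edgeR adjusted p = 0.670). Flvcr1, which has been described as a heme exporter, had -0.23 ± 0.12 and its relative Flvcr2 0.27 ± 0.13 (SE), both with overlapping groups and edgeR adjusted p values of 0.717 and 0.684.

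The list of other transcripts known for an iron-responsive element included Alas2 and Epas1, and both fold changes were negative. The exact pattern searched for above was found in Alas2 and not in the annotated transcript of Epas1. Alas2, the erythroid enzyme that begins heme synthesis, had 12.2, 10.8 and 11.01 CPM in nanoplastic mice, against 17.4, 18.3 and 12.8 CPM in vehicle mice (log2 fold change -0.51 ± 0.14, SE; edgeR adjusted p = 0.501). It is also one of the erythrocyte markers below. Epas1, hypoxia-inducible factor 2 alpha, averaged 120.0 ± 6.5 CPM in nanoplastic and 132.4 ± 5.1 CPM in vehicle kidneys (SD, n = 3 each), without overlap (-0.14 ± 0.065, SE; edgeR adjusted p = 0.674).

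Markers of cells that also express iron genes differed between the libraries. Macrophages recycle red cells and carry ferroportin and heme oxygenase 1, and red cell precursors and dividing cells carry much transferrin receptor, as background. The summed level of 12 macrophage markers was 107.9 to 112.3 CPM in nanoplastic and 119.3 to 127.7 CPM in vehicle libraries, without overlap, and all 10 measured markers had a negative fold change. Cd163 and Timd4 were below the filter, with 31 and 1 counts over the nanoplastic and 40 and 3 over the vehicle libraries. Of the most abundant macrophage markers, Csf1r had a log2 fold change of -0.10 ± 0.076 and Lyz2 -0.22 ± 0.12 (SE; edgeR adjusted p = 0.780 and 0.717).

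The 9 markers of dividing cells summed to 18.6 to 21.3 CPM in nanoplastic and 29.7 to 30.4 CPM in vehicle libraries, and all 8 measured were negative. Mki67 had a log2 fold change of -0.70 ± 0.11 and Top2a -0.58 ± 0.15 (SE; edgeR adjusted p = 0.208 and 0.501), and DESeq2 called Mki67 (adjusted p = 0.00642) and not Top2a (0.410). The 7 erythrocyte markers overlapped, at 511.5 to 647.9 CPM in nanoplastic and 598.8 to 883.3 CPM in vehicle libraries, with 5 of 6 measured negative. Hbb-bs had -0.44 ± 0.14 and Hba-a2 -0.49 ± 0.14 (SE; edgeR adjusted p = 0.541 and 0.501). DESeq2 called 2 of the globin genes lower, Hba-a2 (adjusted p = 0.0312) and Hbb-bt (0.00572), and the groups of Hbb-bt did not overlap. Whether fewer macrophages, dividing cells or red cell precursors have a part in the lower Tfrc, Slc40a1, Hmox1, Fth1 and Ftl1 was not tested.

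Adipocyte markers stood apart by library and not by group, at 248.0 CPM in nanoplastic mouse 1 and 89.8 CPM in vehicle mouse 3, against 38.2 to 44.7 CPM in the other 4 libraries. Adipoq had 18.01 CPM in nanoplastic mouse 1 and 5.5 CPM in vehicle mouse 3, and under 1 CPM elsewhere. Without these 2 libraries, Tfrc had a log2 fold change of -0.44 (edgeR adjusted p = 0.0590), Slc40a1 -0.36 (adjusted p = 0.123), Hmox1 -0.33, Ftl1 -0.20 and Fth1 -0.12, so all 5 kept a negative fold change. The summed markers of urothelium, hepatocytes, endothelium, proximal tubule, thick ascending limb, distal tubule and collecting duct, and podocytes overlapped between the groups. Of the 2 most abundant thick ascending limb markers, Umod was lower in every nanoplastic library (log2 fold change -0.33 ± 0.11, SE, edgeR adjusted p = 0.588). Slc12a1 overlapped between the groups (0.02 ± 0.13, SE, edgeR adjusted p = 0.985). Nanoplastic mouse 1 also stood apart in urothelium markers, at 17.4 CPM against 1.7 to 5.4 CPM in the other 5 libraries, and in the collecting duct gene Aqp2, at 148.5 CPM against 43.2 to 61.6 CPM. Proximal tubule markers, with 34043 to 40406 CPM in nanoplastic and 39207 to 41953 CPM in vehicle libraries, were the most abundant in each.

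**Figure D4:**
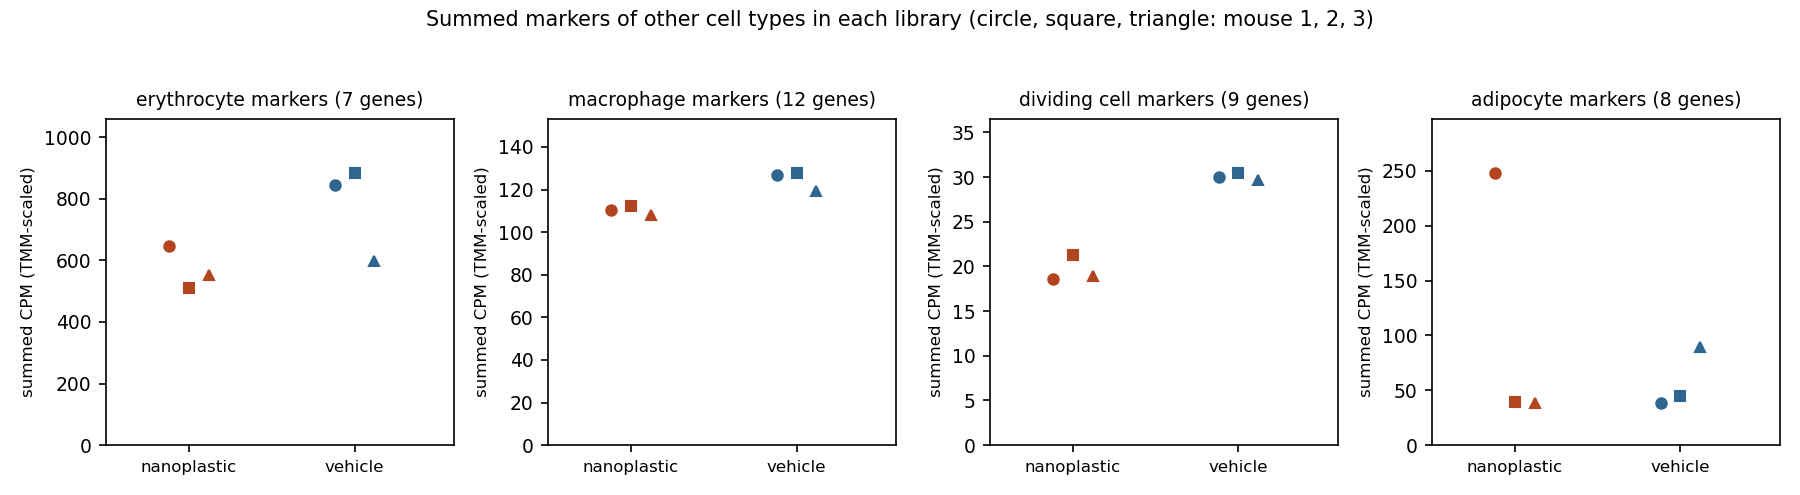
Summed CPM (y axis from 0) of the markers of 4 other cell types in each library, nanoplastic at the left and vehicle at the right of each panel. Macrophage and dividing cell markers were lower in all 3 nanoplastic libraries, erythrocyte markers overlapped, and adipocyte markers were high in nanoplastic mouse 1 and vehicle mouse 3.

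**Figure D5:**
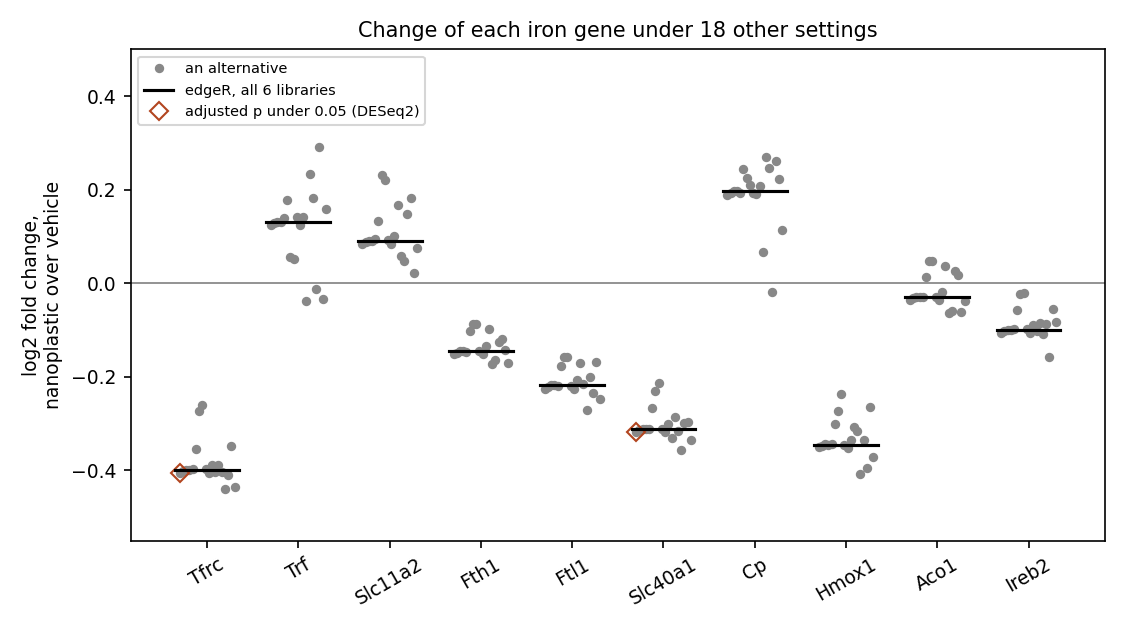
Log2 fold change of nanoplastic over vehicle (y axis) for each iron gene in the edgeR fit to all 6 libraries (line) and under 18 other settings (points), with diamonds where the adjusted p was under 0.05. Tfrc, Fth1, Ftl1, Slc40a1, Hmox1 and Ireb2 lay below 0 under all 18 settings and Slc11a2 above 0, while Trf, Cp and Aco1 crossed 0, and the diamonds are DESeq2's calls of Tfrc and Slc40a1.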

How the data were processed

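Each kidney gave a single library, sequenced on a NovaSeq X Plus according to the labels. The submitters' processing notes name the genome GRCm39 and the tools RSEM 1.3.3, STAR 2.7.9a, Trim Galore 0.6.6 and FastQC. Neither the annotation release nor the strandedness of the kit is given in the sources used here. It is therefore not known whether a gene was counted apart from an antisense partner. The gene tables hold RSEM's expected counts with TPM and FPKM, per the file headers. The expected counts are not normalized, and 10.4% to 11.1% of genes per library had a value that was not whole. TPM as deposited by the authors is a share scaled by length and served in alternatives, and the deposited FPKM was not used. Lengths and effective lengths in bases were deposited too and served for levels per length.

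Symbols came from GENCODE vM21 by gene ID, for 51884 of 57180 genes. After rounding and filterByExpr, TMM-scaled expected counts went into edgeR 4.0.16 (glmQLFit, glmQLFTest; R 4.3.3), with Benjamini-Hochberg adjustment at 0.05. SE is the log2 fold change over the root of F. The common biological coefficient of variation was 0.105 and the median interval reached 0.281 log2 units to either side. Reads carry no molecular identifiers, so a limit from a count of 0 covers counting error alone. Copies were found with blastn 2.17.0. Alternatives used DESeq2 1.42.0 and limma 3.58.1. The edgeR step was tested on simulated data.

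The 10 genes and all lists were chosen with earlier results of these data known. Named genes are all 10, from each other iron list the 3 measured genes of lowest p and the 2 most abundant of each marker list. Also named are the 5 most like Tfrc over the libraries, among the genes compared for likeness below. Of these, 2 genes are not reported here. Of the marker lists, those whose sums overlapped are given by that alone, apart from red cells, adipocytes and urothelium. Adipoq, Aqp2, Hbb-bt, Cd163, Timd4, Ftl1-ps1 and the genes under the filter were named after their values were seen.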

Additional observations from a re-analysis of the deposited data

How the results depend on the processing

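The number of genes past the adjusted threshold was 0 in the edgeR fit, with RLE, library size or upper quartile scaling, without a filter, with limma-voom and with limma on TPM. It was 55 with DESeq2, 3 with robust edgeR estimation, chosen after seeing the data, and 30 without vehicle mouse 3 and nanoplastic mouse 1. Leaving out each replicate gave 0 to 10, the 10 without nanoplastic mouse 1. Tfrc passed with DESeq2 (-0.41), as did Slc40a1 (-0.32), and no member passed under another setting. The lowest other adjusted p of Tfrc were 0.0590 without both mice and 0.0956 with robust estimation, and over leaving out each replicate its adjusted p spanned 0.138 to 0.950 at log2 fold changes of -0.43 to -0.35. Aco1 was positive with library size alone (0.013), on TPM (0.048 with a pseudocount of 0.1 and 0.047 with 1) and without both mice (0.027), and spanned -0.064 to 0.037 over leaving out each replicate. The median of all genes was 0.051 with library size alone, and on TPM 0.066 with a pseudocount of 0.1 and 0.043 with 1. Trf spanned -0.037 to 0.29 over leaving out each replicate and was -0.012 without both mice, and Cp was -0.020 without both mice. The cause was not tested. The Tfrc to ferritin ratio and the heavy-chain share kept their direction in all settings tried. Mice share only a number: deviations of same-numbered mice correlated at 0.044, -0.023 and 0.10, and not every mouse correlated best with its own number. With the replicate block 0 genes passed, and Tfrc had a log2 fold change of -0.40 with an adjusted p of 0.141. At this depth the interval excluded a 1.5-fold change for 63.6% of genes.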

Other observations

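The transcript length that RSEM assigned to Tfrc, weighted over its transcripts, was 3981, 4003 and 3968 bases in nanoplastic mice 1, 2 and 3, against 4228, 4181 and 3980 bases in vehicle mice. Vehicle mouse 3 fell among the nanoplastic libraries, so the groups overlapped. All 6 values lie below the 4890 bases of the transcript that holds the 4 iron-responsive elements in GENCODE vM21. The annotation release behind RSEM's lengths is not known, so this does not show which transcripts were present. The lengths of Ftl1 (966.0 to 966.9 bases over all 6 libraries) and Fth1 (922.3 to 925.0 bases) hardly varied.

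Likeness to Tfrc was read over 10443 other genes with a mean of at least 5 CPM. Unnamed, predicted and clone-named genes and pseudogenes were left out. Over the 6 libraries, 182 of the 10443 followed log2 CPM of Tfrc with a Pearson r above 0.9. The closest were Eif2s3x (0.996), Ing1 (0.994), Caprin1 (0.991), Dio1 (0.989) and Col15a1 (0.983). The libraries form 2 groups of 3, so this likeness holds the difference between the groups as well as that between mice. Log2 fold changes were -0.09 for Eif2s3x, -0.14 for Ing1, -0.13 for Caprin1, -0.64 for Dio1 and -0.51 for Col15a1.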
